A study of Homo sapiens with 4 samples.

Results

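Glycoprotein genes of the extracellular matrix are described here in a human prostate cancer line: the matricellular genes SPARC, SPOCK1, TNC, THBS1, THBS2 and TGFBI, and the genes of fibre-forming or fibre-bound glycoproteins FN1, FBN1, FBN2 and FBLN1. These 10 genes, of 22840 with a symbol in the count tables, were picked by family, and the row with the highest mean count over the 4 libraries stood for each gene. Earlier results of the same comparison were known when they were picked, so their changes, and the adjusted p beside them, are given as a description. RNA came from PC-3M-luc cells, a metastatic prostate carcinoma line that grows without androgen and carries luciferase, at passages 17 to 20 in medium with 10% serum. The LSD1 RNAi group (2 libraries) received RNAi against LSD1, the histone demethylase encoded by KDM1A, and the control RNAi group (2 libraries) received a control RNAi, and both were harvested 72 h after transfection. The labels call the libraries of a group biological replicates, and all come from the same line. The series design text speaks of a knockout, while the sample labels describe RNAi.

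Matricellular proteins are secreted into the matrix but mainly signal to cells, through integrins and other receptors, rather than bear load. SPARC and the testican SPOCK1 bind calcium and collagen or proteoglycan partners, tenascin C (TNC) loosens the attachment of cells to fibronectin, the thrombospondins THBS1 and THBS2 restrain angiogenesis, and TGFBI links integrins to collagen. Fibronectin (FN1) is assembled by cells into fibrils, the fibrillins FBN1 and FBN2 form microfibrils that hold latent TGF-beta, and fibulin 1 (FBLN1) binds to fibronectin. In carcinomas, SPARC, TNC and FN1 are often used as markers of a mesenchymal or invasive state.

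Gene rows summed to 12040681 and 12831374 counts in LSD1 RNAi libraries, against 12474183 and 12410719 in control RNAi libraries. A count of 3 in a library amounted to 0.232 to 0.247 CPM, the count scaled to the normalized library size. KDM1A had 218 and 234 counts in LSD1 RNAi libraries, against 2920 and 2892 in control RNAi libraries, and stood at 7.60% of control. The epithelial markers KRT8, KRT18, KRT19, EPCAM and CDH1 summed to 1067.0 and 1112.2 CPM in LSD1 RNAi libraries and 998.1 and 1014.2 CPM in control RNAi libraries, and 3 of the 5 rose while 0 fell (edgeR). CDH1, the adhesion protein of epithelia, rose most, 2.42-fold. The luminal prostate genes KLK2 and KLK3 had 0 counts in all 4 libraries. Of 7 fibroblast markers, LUM had 0 counts and DCN had 1 count in all, while COL1A1, COL1A2 and PDGFRA passed the filter on low counts and COL1A2 rose 1.52-fold. The list summed to 72.6 and 76.8 CPM in LSD1 RNAi libraries, against 69.3 and 72.3 CPM in control RNAi libraries. Of the 4 endothelial markers CDH5 had 0 counts, and the summed level, carried by KDR, was 60.1 and 53.9 CPM in LSD1 RNAi libraries, against 23.5 and 31.8 CPM in control RNAi libraries. KDR was called higher but PECAM1 lower (edgeR adjusted p = 0.0482). PECAM1 had 26 and 20 counts in LSD1 RNAi libraries, against 37 and 38 in control RNAi libraries. Of 7 leukocyte and platelet markers PTPRC, CD3E, PF4 and PPBP had 0 counts, and the summed level, carried by CD68, was 47.4 and 49.8 CPM in LSD1 RNAi libraries, against 91.0 and 88.8 CPM in control RNAi libraries. CD68 and CD79A were called lower but LYZ higher (edgeR adjusted p = 0.00264). LYZ had only 17 and 13 counts in LSD1 RNAi libraries, against 4 and 2 in control RNAi libraries. The part of these markers in the results was not tested. In bulk RNA, fewer cells that express a gene and less RNA per cell cannot be told apart.

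After LSD1 knockdown SPARC rose, FBN1, TNC, FN1 and THBS1 fell, and SPOCK1 and FBN2 did not pass the test. Of the 10 genes, 7 passed the filter on low counts and 5 of these were called at an adjusted p under 0.05 (edgeR quasi-likelihood test, Benjamini-Hochberg adjustment over 13247 genes), 1 higher and 4 lower. In the whole fit 36.1% of genes were called, 18.2% higher and 17.9% lower, and no reading is drawn from the count of 5, since the genes were picked with these results known. The CPM of the groups did not overlap for 5 of the 7 tested genes, against 67.2% of all genes tested. Changes of at least 2-fold were called in 3 of the 7 tested genes, SPARC, TNC and FBN1, against 3.87% of all genes tested. The median log2 fold change of the 7 tested genes was -0.49, against 0.0023 over all genes tested, and the median absolute log2 fold change was 0.75, against 0.23. For the same reason, no reading is drawn from these shares and medians. THBS2, FBLN1 and TGFBI had too few counts to be tested.

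**Figure D1:**
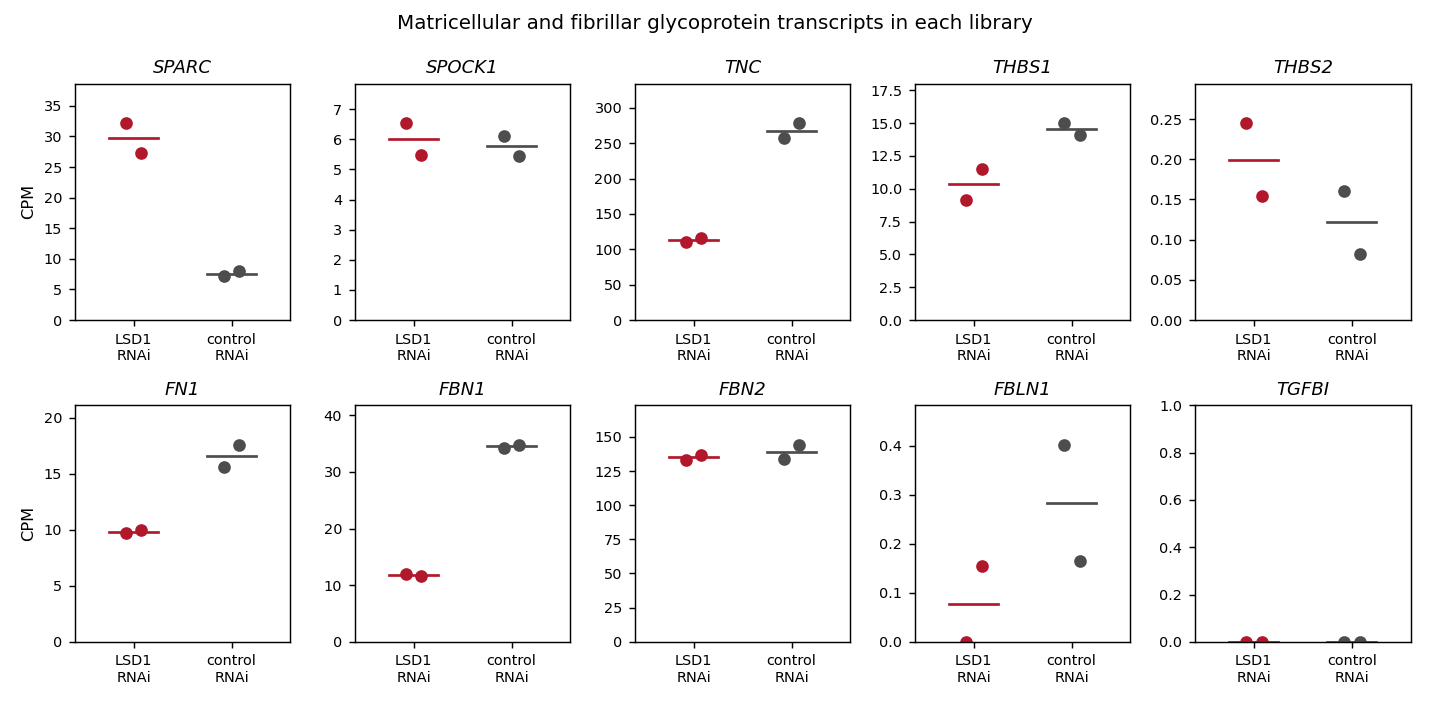
CPM of each of the 10 genes (one panel each, vertical axis from 0 on a scale of its own) in the 2 LSD1 RNAi libraries (red, left) and the 2 control RNAi libraries (grey, right); points are libraries and lines are means. The red points lie above the grey ones for SPARC and below them for TNC, THBS1, FN1 and FBN1, overlap them for SPOCK1 and FBN2, and TGFBI is at 0 throughout.

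Among the matricellular genes, SPARC had 32.2 and 27.3 CPM in LSD1 RNAi libraries, against 7.16 and 7.98 CPM in control RNAi libraries (394 and 353 counts, against 89 and 97). Both knockdown libraries lay above both control libraries. SPARC rose 3.92-fold (log2 fold change 1.97 with SE 0.139, edgeR adjusted p = 7.43e-13, 95% interval 1.69 to 2.26). Over 13 alternative settings the log2 fold change lay between 1.84 and 2.09.

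TNC was the most abundant of the 10 genes per length in both groups. It had 110.6 and 115.6 CPM in LSD1 RNAi libraries, against 257.1 and 278.5 CPM in control RNAi libraries. The groups did not overlap, and the libraries of a group lay close together. TNC fell 2.37-fold (log2 fold change -1.24 with SE 0.0830, edgeR adjusted p = 2.13e-13).

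THBS1 moved less and less firmly. It had 112 and 149 counts in LSD1 RNAi libraries, against 187 and 172 in control RNAi libraries, or 10.3 ± 1.66 CPM and 14.6 ± 0.634 CPM (SD, n = 2 each). The groups did not overlap, but the knockdown libraries lay further apart than the control libraries did. THBS1 fell 1.41-fold (log2 fold change -0.49 with SE 0.148, edgeR adjusted p = 0.00850). The call was lost without LSD1 RNAi replicate 1, where the log2 fold change was -0.35 (edgeR adjusted p = 0.135), and with DESeq2, where it was -0.50 (DESeq2 adjusted p = 0.0791).

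SPOCK1, whose protein shares the calcium-binding and follistatin-like domains of SPARC, had 6.54 and 5.48 CPM in LSD1 RNAi libraries, against 6.11 and 5.43 CPM in control RNAi libraries. The groups overlapped, and the log2 fold change of 0.06 had a 95% interval of -0.34 to 0.46 (edgeR adjusted p = 0.853). That interval spans 0.788-fold to 1.37-fold. THBS2 had 3 and 2 counts in LSD1 RNAi libraries and 2 and 1 counts in control RNAi libraries, at or under the 3-count floor. TGFBI had 0 counts in all 4 libraries, which allows up to 3 counts, or 0.232 to 0.247 CPM, in a library. These limits cover counting error only.

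Among the fibre genes, FN1 (6 rows, represented by NM_212482) had 9.73 and 9.96 CPM in LSD1 RNAi libraries, against 15.6 and 17.6 CPM in control RNAi libraries. The groups did not overlap. FN1 fell 1.68-fold (log2 fold change -0.75 with SE 0.142, edgeR adjusted p = 8.52e-05). The other 5 FN1 rows are splice forms that share most reads with it, so they are no further evidence. In NM_002026, NM_212474, NM_212476 and NM_212478, which match transcripts of 7846 to 8435 nucleotides, the mean LSD1 RNAi level was 59.2% to 60.7% of the control level. NM_054034, which matches a transcript of only 2388 nucleotides, had 27 and 33 counts in LSD1 RNAi libraries, against 32 and 42 in control RNAi libraries, or 78.9% of control. Whether the short form differs from the long ones was not tested.

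The fibrillins parted. FBN1 had 11.9 and 11.6 CPM in LSD1 RNAi libraries, against 34.2 and 34.8 CPM in control RNAi libraries. The groups lay far apart next to the spread inside each. FBN1 fell 2.93-fold (log2 fold change -1.55 with SE 0.120, edgeR adjusted p = 6.22e-12, 95% interval -1.80 to -1.31). FBN2, the fibrillin of developing tissue, had 133.3 and 136.5 CPM in LSD1 RNAi libraries, against 133.5 and 144.2 CPM in control RNAi libraries. The groups overlapped, and the log2 fold change of -0.04 had a 95% interval of -0.21 to 0.13 (edgeR adjusted p = 0.731), which does not meet the interval of FBN1. FBN2 was thus known to within 0.865-fold to 1.09-fold in these libraries. FBLN1 had 0 and 2 counts in LSD1 RNAi libraries and 5 and 2 counts in control RNAi libraries in its highest row, and its 3 other rows held at most 4 counts in a library.

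**Figure D2:**
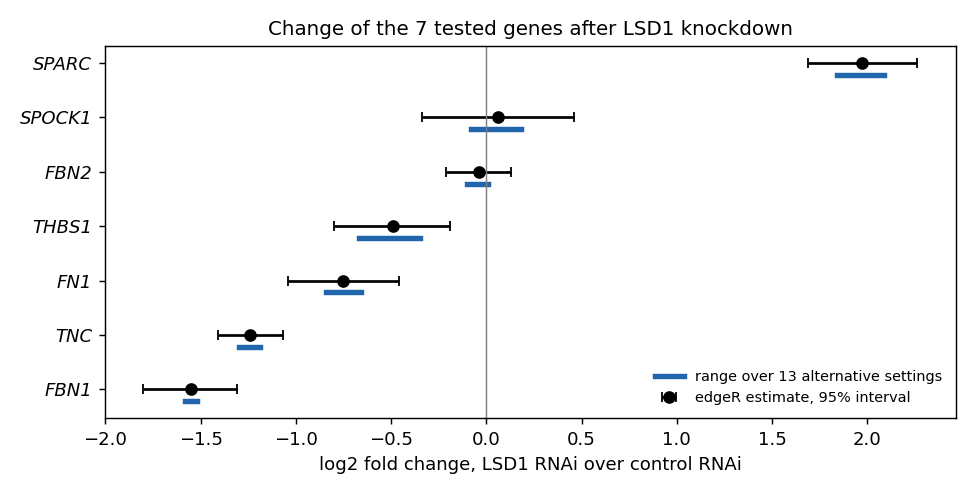
Log2 fold change (horizontal axis, LSD1 RNAi over control RNAi) of the 7 tested genes, one per line; black points and bars are the edgeR estimates with 95% intervals and blue bars span the values under 13 alternative settings. SPARC lies at 1.97, FBN1 at -1.55 and TNC at -1.24, while the intervals of SPOCK1 and FBN2 include 0.

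Levels can be set beside each other only per length. In LSD1 RNAi libraries TNC stood at 14.8 ± 0.464, FBN2 at 12.6 ± 0.217 and SPARC at 8.04 ± 0.949 CPM per kb of the matched GENCODE transcript (SD, n = 2), with no overlap between neighbours. THBS1 at 1.33 ± 0.213 and SPOCK1 at 1.24 ± 0.155 CPM per kb overlapped each other, and FN1 at 1.11 ± 0.0181 and FBN1 at 1.00 ± 0.0216 CPM per kb followed (SD, n = 2). In control RNAi libraries TNC led at 35.1 ± 1.98 CPM per kb, followed by FBN2 at 12.9 ± 0.702 and FBN1 at 2.93 ± 0.0363 CPM per kb (SD, n = 2). SPARC at 2.05 ± 0.156, THBS1 at 1.88 ± 0.0815 and FN1 at 1.86 ± 0.158 CPM per kb came next, and the libraries of SPARC and FN1, and of THBS1 and FN1, overlapped, and SPOCK1 was lowest of the tested genes at 1.19 ± 0.100 CPM per kb (SD, n = 2). SPARC thus stood next after FBN2 in LSD1 RNAi libraries, a place that FBN1 held in control RNAi libraries. The transcript lengths come from matched reference transcripts, which may not be the forms these cells make.

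**Figure D3:**
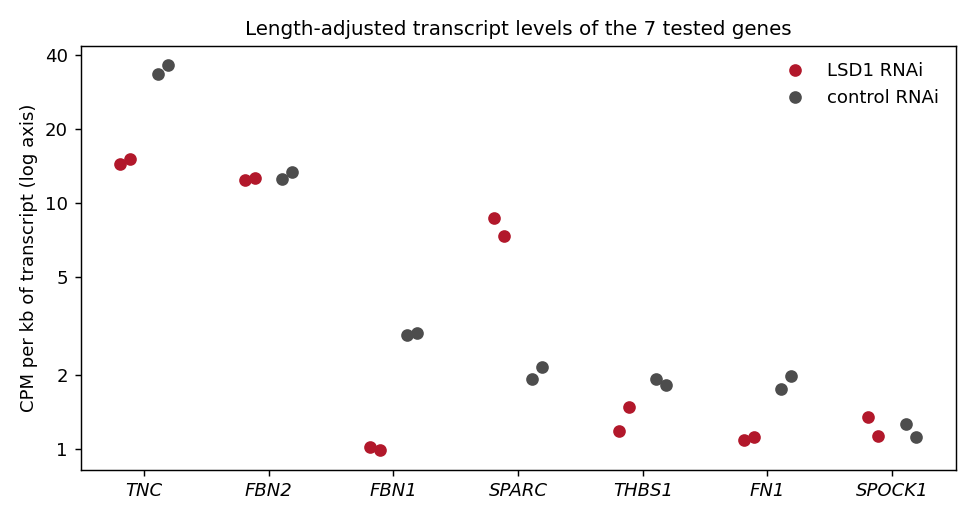
CPM per kb of transcript (vertical log axis) of the 7 tested genes in the 2 LSD1 RNAi libraries (red, left of each pair) and the 2 control RNAi libraries (grey), ordered by the control mean. TNC and FBN2 stay highest in both groups, at 14.8 and 12.6 in the knockdown and 35.1 and 12.9 in the control, SPARC is above its control points, and FBN1 falls to the lowest place in the knockdown.

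The promoters of the 3 genes called with at least a 2-fold change are shown because these genes carry the main differences of the family. Each covers 250 bases before to 50 bases after the transcription start (RefSeq, GRCh38.p14), and the capitals mark matches, on either strand, to the TATA box TATAA, the GC box GGGCGG, the CCAAT box, the cyclic AMP element TGACGTCA, the AP-1 site TGANTCA, the TEAD site CATTCC and the repeat GGAGGAGG.
SPARC, chr5:151686866-151687165, minus strand: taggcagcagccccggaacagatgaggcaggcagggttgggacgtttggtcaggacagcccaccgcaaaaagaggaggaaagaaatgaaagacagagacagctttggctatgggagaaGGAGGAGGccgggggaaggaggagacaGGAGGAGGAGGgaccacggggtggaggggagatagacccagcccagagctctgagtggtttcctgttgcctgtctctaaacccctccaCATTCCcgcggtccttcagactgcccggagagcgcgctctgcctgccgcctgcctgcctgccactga
TNC, chr9:115118108-115118407, minus strand: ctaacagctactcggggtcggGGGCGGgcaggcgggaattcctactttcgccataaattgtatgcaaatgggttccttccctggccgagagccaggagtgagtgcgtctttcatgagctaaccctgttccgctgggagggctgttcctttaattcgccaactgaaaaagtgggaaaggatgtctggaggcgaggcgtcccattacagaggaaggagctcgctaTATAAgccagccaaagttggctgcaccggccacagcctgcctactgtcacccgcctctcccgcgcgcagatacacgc
FBN1, chr15:48644921-48645220, minus strand: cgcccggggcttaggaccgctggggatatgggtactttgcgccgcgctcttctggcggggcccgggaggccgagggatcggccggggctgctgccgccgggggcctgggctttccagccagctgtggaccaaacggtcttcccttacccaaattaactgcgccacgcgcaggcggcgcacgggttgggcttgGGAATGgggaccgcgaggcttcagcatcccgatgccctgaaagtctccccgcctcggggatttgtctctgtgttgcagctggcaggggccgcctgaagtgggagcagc
The SPARC promoter holds 3 matches to GGAGGAGG, of which a pair overlaps, while 10.9% of 35116 promoters hold at least 1, and 1 match to CATTCC, held by 14.0% of all. TNC holds 1 TATA box shortly before its start and 1 GC box, held by 20.4% and 45.0% of all promoters. FBN1 holds 1 TEAD site, read as its complement in the sequence shown, and no other match. Over the 9 genes with a promoter in the table, the TATA box was held by FN1, THBS2 and TNC, the cyclic AMP element by FN1 (1.85% of all promoters), the TEAD site by FBN1, SPARC, THBS1 and THBS2, the CCAAT box by FBN2, FN1 and THBS1 (34.6%), and the AP-1 site by 0 of 9 (7.71%). GGAGGAGG was also held by FBLN1 and THBS2, making 3 of 9, and the GC box by 6 of 9, FBLN1, FBN2, FN1, TGFBI, THBS1 and TNC. A match to letters is a description, not a bound site.

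FBN1 shares an 8-mer with the knockdown target that was noticed after fold changes in these libraries were seen. KDM1A holds CTAGAAGA in its coding sequence, and FBN1 holds it at transcript positions 8989, in the coding sequence, and 10121, which lies 1049 bases after the stop codon in the 3′ UTR (capitals mark the 8-mer, letters from GENCODE 29).
KDM1A, coding sequence: cacaaggaaagCTAGAAGAaaaacttcagg
FBN1, coding sequence: aacttaaccaaCTAGAAGAcaaatatgaca
FBN1, 3′ UTR: atgtataaccaCTAGAAGAaaatttaacat
The 3′ UTR site of FBN1 matches KDM1A over 11 bases, CTAGAAGAAAA, a run held by 79 of 12813 searched transcripts, of which 25 were called lower and 7 higher. The 8-mer was held by 1074 transcripts, of which 25.3% were called lower and 13.5% higher, against 18.1% and 18.3% of all searched. At least 2 copies were held by 96, of which 38.5% were called lower and 9.38% higher. The 8-mer was picked with these fold changes known, and FBN1 and KDM1A are among its holders. The shares were also not adjusted for transcript length, so no reading is drawn from them. None of the other 6 tested genes of the family holds CTAGAAGA. The 7-mer TAGAAGA inside it also lies in the coding sequence of FBN2, which did not pass the test, and in 28.2% of searched transcripts. The sequence of the RNAi used is not given in the sources used here, and whether the 8-mer plays a part in the fall of FBN1 was not tested.

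SPARC and FN1 share another 7-mer, ACTTCGA, from a set that was likewise picked after fold changes were seen, and moved in opposite directions. It lies in the coding sequence of both, with the 7-mer in capitals.
SPARC, coding sequence: gctggcccgggACTTCGAgaagaactata
FN1, coding sequence: ggtgcagcacaACTTCGAattatgagcag
Of 1180 transcripts that hold ACTTCGA, 32.1% were called higher and 12.1% lower, against 18.3% and 18.1% of all searched. Because the 7-mer was picked with fold changes known, no reading is drawn from these shares either. The part of ACTTCGA in the rise of SPARC was not tested. Some exons of the family also lie over other genes on the opposite strand, and no source says that reads were counted by strand. SPARC overlaps CLMAT3 over 381 nucleotides and TNC overlaps DEC1 over 129 nucleotides. No row was found under either of these names, and rows under other symbols for these neighbours were not looked for. THBS1 overlaps FSIP1 over 448 nucleotides, and FSIP1 had 5 and 8 counts in LSD1 RNAi libraries and 6 and 10 in control RNAi libraries.

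The genes whose values across the 4 libraries lay nearest to those of SPARC, by the Euclidean distance of log2 CPM centred on each gene, were KMO at 0.121, ARL6IP1 at 0.169 and ARMC9 at 0.186. KMO, an enzyme of tryptophan breakdown, had 26.3 and 22.6 CPM in LSD1 RNAi libraries, against 6.19 and 6.09 CPM in control RNAi libraries. Nearest to TNC were the noncoding MIR210HG at 0.035, IQCH at 0.102 and PSPH at 0.140. Nearest to FBN1 were ANGPTL4 at 0.073, NT5E at 0.121 and TCF19 at 0.121. With 2 libraries in each group such a distance reflects little beyond the size of the change.

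Among 20 other matricellular genes, 9 were tested, and 1 rose, 5 fell and 3 did not pass, with a median log2 fold change of -0.26. FSTL1, a secreted glycoprotein with a SPARC-like follistatin domain, had 374.5 and 397.4 CPM in LSD1 RNAi libraries, against 720.8 and 732.7 CPM in control RNAi libraries, and fell 1.88-fold. The tenascin TNXB fell 2.48-fold, with 155 and 200 counts in LSD1 RNAi libraries, against 431 and 429 in control RNAi libraries. Its value is uncertain because the near-identical pseudogene TNXA, with 25 and 22 counts in LSD1 RNAi libraries and 60 and 55 in control RNAi libraries, can share reads. The edgeR adjusted p was 1.64e-10 for FSTL1 and 2.57e-10 for TNXB. The CCN genes encode cysteine-rich integrin ligands, and CCN1 and CCN3 fell by 0.33 and 0.26 on the log2 scale (edgeR adjusted p = 0.0155 and 0.0139). The CCN1 call was lost without LSD1 RNAi replicate 2 (-0.23) or control RNAi replicate 1 (-0.17), and that of CCN3 without LSD1 RNAi replicate 1 (-0.24) or control RNAi replicate 1 (-0.20). CCN4 (-0.70) and the testican SPOCK3 (0.94), named after their values were seen, made up the called genes. Their calls rested on few counts: that of CCN4 was lost without LSD1 RNAi replicate 2 (-0.29) or control RNAi replicate 1 (-0.61), and that of SPOCK3 without any 1 of the 4 libraries (0.87 to 1.00). CCN5, TNN, TNR, SMOC2 and COMP had 0 counts throughout.

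Among 23 fibulin and elastic fibre genes, 11 were tested, and 2 rose, 3 fell and 6 did not pass, with a median of 0.06. The lysyl oxidase relatives, which crosslink elastin and collagen, went opposite ways. LOXL1 had 63.3 and 62.2 CPM in LSD1 RNAi libraries, against 32.1 and 38.3 CPM in control RNAi libraries, and rose 1.78-fold (edgeR adjusted p = 4.72e-08). LOXL2 had 23.7 and 24.0 CPM in LSD1 RNAi libraries, against 48.4 and 41.9 CPM in control RNAi libraries, and fell 1.89-fold (edgeR adjusted p = 2.88e-08). Of the latent TGF-beta binding proteins, which resemble fibrillins, LTBP1 rose by 0.24, and LTBP2 fell by 0.52 on the log2 scale, as did, named after its value was seen, LTBP3 by 0.23. LTBP4 did not pass the test, with a log2 fold change of 0.08 (edgeR adjusted p = 0.590). The LTBP1 call was lost without LSD1 RNAi replicate 1 (0.21) or control RNAi replicate 1 (0.16). That of LTBP2 was lost without LSD1 RNAi replicate 1 (-0.28) or control RNAi replicate 2 (-0.42), and that of LTBP3 without LSD1 RNAi replicate 1 (-0.16), control RNAi replicate 1 (-0.22) or control RNAi replicate 2 (-0.24). Of the other fibulins, FBLN2, FBLN5, FBLN7 and EFEMP1 had at most 2 counts in any library. EFEMP2 had 5 and 23 counts in LSD1 RNAi libraries and 15 and 17 in control RNAi libraries, and HMCN1 had 111 and 106 counts in LSD1 RNAi libraries and 84 and 84 in control RNAi libraries, and neither passed the test (edgeR adjusted p = 0.732 and 0.129). The fibrillin FBN3 had 0 counts.

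Among 20 receptor genes for these glycoproteins, 14 were tested, and 2 rose, 7 fell and 5 did not pass, with a median of -0.36. ITGA5, whose product pairs with the ITGB1 product as the main fibronectin receptor, had 73.1 and 79.4 CPM in LSD1 RNAi libraries, against 217.2 and 190.7 CPM in control RNAi libraries, and fell by 1.42 on the log2 scale. ITGB1 itself had a log2 fold change of -0.19 (edgeR adjusted p = 0.0642). SDC1, a heparan sulfate proteoglycan that binds fibronectin and thrombospondin, fell 1.83-fold (132.4 and 143.4 CPM in LSD1 RNAi libraries, against 246.5 and 259.3 CPM in control RNAi libraries). The collagen and vitronectin receptor subunits ITGA2 and ITGB5 fell by 0.66 and 0.51 on the log2 scale. The other genes that fell, named after their values were seen, were ITGA3, SDC4 and CALR, by 0.39, 0.34 and 0.38. The genes that rose, named after their values were seen, were ITGB8 and STAB1, the second a scavenger receptor for SPARC, both by 0.50 on the log2 scale. STAB1 had 71.7 and 80.8 CPM in LSD1 RNAi libraries, against 50.4 and 57.7 CPM in control RNAi libraries (edgeR adjusted p = 8.72e-05). The thrombospondin receptor CD47 had a log2 fold change of 0.12 (edgeR adjusted p = 0.318), and CD36 was not tested, with 8 and 9 counts in LSD1 RNAi libraries and 4 and 5 in control RNAi libraries.

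Among 18 enzymes that modify, crosslink or cleave these proteins, 13 were tested, and 3 rose, 3 fell and 7 did not pass, with a median of -0.06. The 3 that rose were the proteases MMP13, MMP1 and TLL1, by 2.84, 1.14 and 1.06 on the log2 scale. MMP13, a collagenase that also cleaves fibronectin, had 440 and 433 counts in LSD1 RNAi libraries, against 46 and 73 in control RNAi libraries (edgeR adjusted p = 3.26e-15). TLL1, a tolloid-like procollagen protease, had 55.9 and 53.6 CPM in LSD1 RNAi libraries, against 25.2 and 27.2 CPM in control RNAi libraries (edgeR adjusted p = 3.94e-10). POGLUT3, which adds glucose to the EGF-like repeats of fibrillins, fell 1.46-fold (edgeR adjusted p = 0.000478). ADAMTS1 and HTRA1, named after their values were seen, fell by 0.41 and 0.26 on the log2 scale. The HTRA1 call was lost without LSD1 RNAi replicate 1 (-0.21) or control RNAi replicate 1 (-0.17), and under 4 other settings.

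**Figure D4:**
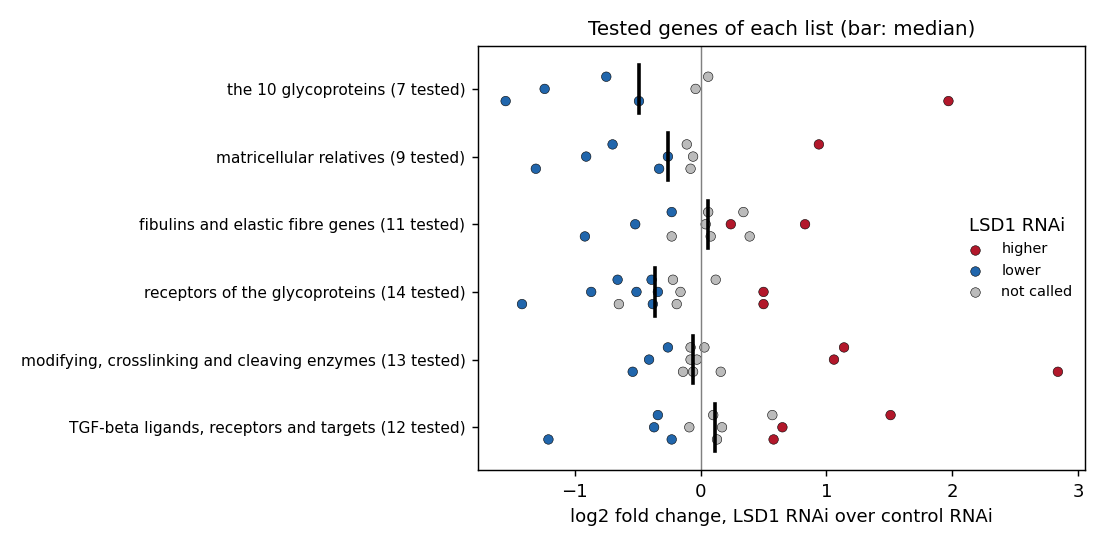
Log2 fold change (horizontal axis, LSD1 RNAi over control RNAi) of every tested gene in the glycoprotein family and in 5 related lists, one point per gene, coloured by its edgeR call; black bars are medians. The family median is -0.49 and the receptor median -0.36, while the medians of the elastic fibre genes, enzymes and TGF-beta genes lie between -0.06 and 0.12.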

How the data were processed

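RNA was sequenced from 4 libraries of PC-3M-luc cells, 2 per group. The authors deposited whole-number read counts per RefSeq transcript, a unit read off the values, as no header names it. TopHat2, HOMER, edgeR, DESeq 1.8.3 and the hg19 build are named, with no role, per the submitters' processing notes. How strands were treated, and how reads were counted, is not given in the sources used here.

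Of 38767 rows, 37205 were given symbols by a RefSeq gene table and 472 by GENCODE 29, and 1090 (1.38% to 1.40% of counts) matched none and were left out. Splice forms count the same reads again, so the row with the highest mean stood for a gene. Counts were filtered with filterByExpr (count 10, total 15), scaled by TMM and tested over 13247 genes in edgeR 4.0.16 (R 4.3.3) by quasi-likelihood, group being the only term. The SE is the absolute log2 fold change divided by the square root of the F statistic of that test. Log2 intervals are 95% intervals built from this SE. The test was checked on simulated counts.

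The genes, lists and 7-mers were chosen with earlier results of these data known. The genes named are all 10, up to 4 called genes per list with the smallest adjusted p, and the 3 genes nearest to SPARC, TNC and FBN1 (mean of at least 5 CPM, pseudocount 0.5 CPM). Some listed genes are counted in their list but not reported here by name. The other settings tried were DESeq2 1.42.0 and limma-voom (limma 3.58.1) as tests, scaling by DESeq2 size factors or by library size alone, a 1 CPM filter or none, a replicate block, summing a gene's rows, keeping unmatched rows, and leaving out each library. Motif and length work used GENCODE 29 transcripts matched by accession. Reference coordinates are of GRCh38, and no coordinates on hg19, the build named by the submitters, are printed. With 2 libraries per group, the spread behind each p-value is borrowed across genes (biological coefficient of variation 5.96%).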

Additional observations from a re-analysis of the deposited data

How the results depend on the processing

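The count of the 10 genes called higher was 1 under all 13 alternatives, and the count called lower was 4 except with DESeq2 and without LSD1 RNAi replicate 1, where it was 3 because THBS1 was lost. Over all genes, DESeq2 called 1564 higher, against 2413 with edgeR, and 1618 lower, against 2375, and the cause was not tested. Without 1 library, 1772 to 1988 genes were called higher and 1889 to 1998 lower. Over 49 single genes and 13 alternatives, 599 of 637 values kept their side of the threshold and 38 values, from 11 genes, lost the call, and 23 of the 38 came from leaving out a library. DESeq2 lost the calls of THBS1, CCN1, CCN4, SPOCK3, LTBP2, LTBP3, HTRA1 and SMAD3. Scaling by library size alone lost LTBP3, HTRA1 and SMAD3, no filter lost HTRA1 and SMAD3, and summed rows lost LTBP2 and HTRA1. SPARC, TNC, FN1 and FBN1 were called in all 13, and SPOCK1 and FBN2 in 0. No called gene changed sign, but the uncalled SPOCK1 did without LSD1 RNAi replicate 1 (-0.08) and without control RNAi replicate 2 (-0.03), and the uncalled FBN2 did without control RNAi replicate 2 (0.01). The labels do not say whether same-numbered libraries are paired, and the main fit did not pair them. Deviations of replicates 1 and 2 correlated at 0.0794 between the groups over genes. With the replicate number as a block 2632 genes were called higher and 2636 lower, against 2413 and 2375 without it. The calls of the 10 genes were as before. Depth limits THBS2, FBLN1 and TGFBI, which had 0 to 5 counts in a library.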

Other observations

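TGF-beta genes, whose products fibrillins and thrombospondins bind or activate, were all tested. Among these 12, 3 rose and 4 fell, while 5 missed the threshold, and the median log2 fold change was 0.12. TGFBR1, the signalling receptor kinase, had 25.1 and 25.1 CPM in LSD1 RNAi libraries, against 9.01 and 8.55 CPM in control RNAi libraries, and rose 2.86-fold (edgeR adjusted p = 1.09e-10). TGFBR3, a coreceptor, rose 1.57-fold, and the ligand TGFB3 rose by 0.58 on the log2 scale. Among the genes that fell, TGFB2, TGFBR2 and SMAD3, named after their values were seen, did so by 0.37, 0.34 and 0.23 on the log2 scale. The TGFB2 call was lost without control RNAi replicate 2 (-0.20), and that of SMAD3 without LSD1 RNAi replicate 1 (-0.17) or control RNAi replicate 2 (-0.16), and under 3 other settings.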
